A study of Homo sapiens with 6 samples.

Results

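Untreated hiPSC-CMs (control) were compared with hiPSC-CMs kept in 100 mM alcohol for 24 h, at 2 libraries in each group. These 4 libraries were chosen by the treatment in their labels from the 6 of the series. The other two libraries received 100 mM alcohol together with 1 μM losartan, a blocker of the angiotensin II type 1 receptor, for 24 h, and entered the fit so that the spread between replicates could be estimated from all 6. The cells are cardiomyocytes differentiated from a stem cell line that the sample labels call hiPSC and name H9, which is an established line of human embryonic stem cells, so all libraries come from 1 line, and the labels name no genetic change. No source used here says that the replicates came from separate differentiations, so p-values measure the spread between these libraries, which may be technical.

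Ethanol is oxidized to acetaldehyde and then to acetate, mainly by alcohol dehydrogenases, CYP2E1 and aldehyde dehydrogenases, and long exposure of the heart to alcohol is known for weakened contraction, arrhythmia and fibrosis. Cardiomyocytes made from stem cells resemble fetal heart muscle: they beat, they use glycolysis heavily, they express both atrial and ventricular genes, and some of them can still divide. The comparison asks which genes and functional classes were at other levels after 24 h of alcohol alone.

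Each library held 4903673 to 5051448 expected counts, and 18610 to 18681 genes had a count above 0. A count of 0 still allows 3 counts, or 0.594 to 0.612 CPM, where CPM is the count scaled by the library total, an upper limit for counting error alone. Of 16 cardiomyocyte markers, 0 were under 1 FPKM (the expected count scaled by transcript length and library) in all 4 libraries. TNNT2, the troponin T of heart muscle, had 3728 and 3615 FPKM untreated and 3497 and 3308 FPKM with alcohol. The summed FPKM of the cardiomyocyte markers was 33258 and 33246 in control and 31379 and 23397 in alcohol. That of 6 smooth muscle markers was 1965 and 1724 in control and 1491 and 751 in alcohol. By gene, 9 of the 16 cardiomyocyte markers had a log2 fold change of alcohol against control above 0 and 7 below. Their median was 0.02 (−0.12 to 0.10 with 1 of the 4 libraries left out), and all 6 smooth muscle markers lay below 0. For 12 fibroblast or epicardial markers, 11 of them listed, the sum was 476 and 429 in control and 526 and 493 in alcohol. Endothelial, liver, pluripotency, neural and leukocyte markers summed to between 8.37 and 61.1 FPKM per library. In bulk RNA, fewer cells of a type and less RNA per cell cannot be told apart.

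Alcohol replicate 2 stood farther from control than alcohol replicate 1 did. The SD of the log2 difference in CPM between libraries was taken over the more highly expressed genes of each pair, 10800 to 10860 of them. It was 0.258 for the control pair and 0.290 for the alcohol pair. Alcohol replicate 1 differed from the control libraries with an SD of 0.267 and 0.304, and alcohol replicate 2 with an SD of 0.378 and 0.350. Between the control libraries 0.36% of these genes differed by over 1 on the log2 scale. Against control replicates 1 and 2 the share was 0.31% and 1.23% for alcohol replicate 1, and 2.02% and 1.62% for alcohol replicate 2. Control replicate 2 held more RNA of mitosis genes than control replicate 1, with a summed FPKM over 49 genes of 1183 against 700.4. Where leaving out 1 control or alcohol library turned the sign of a class median or moved it by over 1.5 times, the values without that library follow the median.

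The TMM scaling of the libraries centres log2 ratios near 0, so differences are relative to the bulk of genes. The log2 fold change of alcohol against control had a median of −0.0033 over 14926 genes tested, and 90% of genes lay between −0.59 and 0.59. Fitted with edgeR's quasi-likelihood test and Benjamini-Hochberg adjustment, 10 genes were called at an adjusted p under 0.05, which is 0.067% of the genes tested. Of these, 9 were higher in alcohol (0.0603%) and 1 was lower (0.0067%). This split depended on the setting: 31 of 68 called genes were higher with DESeq2, 27 of 48 with the replicate number as a block, 94 of 220 without alcohol replicate 1 and 15 of 64 without control replicate 1. An unadjusted p under 0.05 was found for 1649 genes, or 11%. Both alcohol libraries lay above both control libraries in CPM in 3280 genes (22%) and below both in 3258 genes (21.8%), together 6538 genes (43.8%). Requiring also an unadjusted p under 0.05 left 773 genes above control (5.18%) and 828 below (5.55%), together 1601 (10.7%), and the counts by class given here use both conditions unless stated, so that 5.18% and 5.55% are the shares to read them against. Their median fold was 1.46 upward and 1.44 downward, and alcohol replicate 2 lay farther from control than alcohol replicate 1 in 74.8% of the former and 72.8% of the latter.

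Genes with a high FPKM in control were more often below control. In the tenth of genes with the highest FPKM in control, 32.1% lay below both control libraries and 21.6% above. With an unadjusted p under 0.05 from edgeR the shares were 11.8% and 5.16%. In the tenth with the lowest FPKM in control, 12.9% lay below and 24.5% above. The ranking used control alone, which is 1 side of the comparison, and its part in these shares was not tested. Among the 300 highest genes by the same ranking, 48 were below and 12 above. The 12 included MDK, a heparin-binding growth factor, with 595 and 592 FPKM in control against 738 and 803 FPKM in alcohol, PSAP, the precursor of the saposins of the lysosome, with 234 and 232 FPKM untreated and 289 and 327 FPKM with alcohol, and TXNIP, which binds thioredoxin and restrains glucose uptake, with 179 and 188 FPKM in control against 218 and 286 FPKM in alcohol. EIF4A2 and EIF3E, factors of translation initiation, were also among them, EIF4A2 with 202 and 169 FPKM untreated and 251 and 273 FPKM with alcohol. Those below included DYNLL1, a light chain of dynein, with 201 and 245 FPKM in control against 157 and 141 FPKM in alcohol.

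The 10 called genes do not belong to 1 class. MFAP4 and COL14A1 encode proteins of the extracellular matrix and are given with the matrix genes, and FSBP, HSPE1-MOB4 and INO80B-WBP1 share reads with other genes and are given with their partners. The remaining 5 rose in alcohol, and their control and alcohol libraries did not overlap.

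PPP1R1A (NCBI Gene 5502, chr12:54579246-54588659, GRCh38.p14), which encodes an inhibitor of protein phosphatase 1 that acts downstream of β-adrenergic signalling, had 48.2 and 51.0 FPKM untreated and 82.8 and 115 FPKM with alcohol (log2 fold change 0.95, standard error 0.14, adjusted p = 0.0309 from edgeR). Its control libraries were nearly equal, and alcohol replicate 2 was the higher of the alcohol libraries. GSTM2 (NCBI Gene 2946, chr1:109668057-109683997), a glutathione transferase, had 48.4 and 44.5 FPKM in control against 79.0 and 100.1 FPKM in alcohol (log2 fold change 0.89, standard error 0.13, adjusted p = 0.0309). It belongs to a family of close copies among which reads can be divided: GSTM1 also lay above both control libraries, with 20.8 and 26.2 FPKM untreated and 35.6 and 37.8 FPKM with alcohol, and GSTM4 had 53.3 and 50.9 FPKM in control against 58.4 and 60.5 FPKM in alcohol. TFPI2 (NCBI Gene 7980, chr7:93885396-93890753), a secreted inhibitor of serine proteases, had 15.1 and 11.4 FPKM untreated and 27.3 and 28.4 FPKM with alcohol (log2 fold change 1.03, standard error 0.15, adjusted p = 0.0309). EFNB3 (NCBI Gene 1949, chr17:7705202-7711372), a membrane-bound ligand of Eph receptors, had 32.0 and 33.1 FPKM in control against 53.4 and 57.7 FPKM in alcohol (log2 fold change 0.73, standard error 0.11, adjusted p = 0.0354). HHATL (NCBI Gene 57467, chr3:42692663-42702798), a relative of the hedgehog acyltransferase that is expressed in muscle, had 5.40 and 4.78 FPKM untreated and 12.7 and 14.9 FPKM with alcohol (log2 fold change 1.39, standard error 0.22, adjusted p = 0.0456). These calls are near the threshold: without alcohol replicate 2 the adjusted p of the 5 genes was 0.180 to 0.251, without control replicate 2 it was 0.0831 to 0.137, and without either co-treated library it was 0.101 to 0.123. Without control replicate 1 that of EFNB3 was 0.0738. Over all alternatives it lay between 2.56e-05 and 0.251, always with the same direction.

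**Figure D1:**
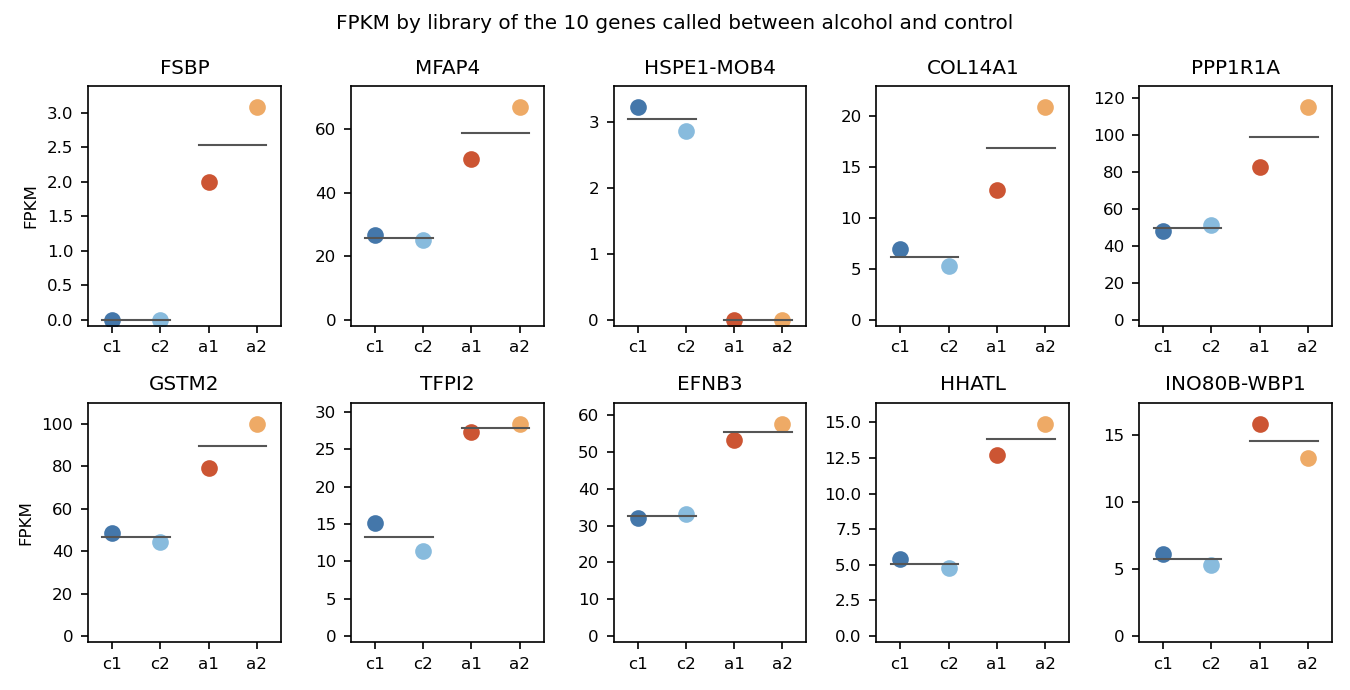
FPKM of the 10 called genes in the control libraries (c1, c2) and alcohol libraries (a1, a2); each point is 1 library and each line is the mean of a group. In every panel both alcohol points lie on the same side of both control points, and FSBP and HSPE1-MOB4 are at 0 in 1 group.

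Beyond the called genes, functional classes and groups defined by gene name were described by the number of members beyond both control libraries and by their median log2 fold change. The genes named from these classes had adjusted p-values of 0.0531 to 0.449 from edgeR unless they are among the 10, or overlap between groups, and are given as values. The classes with the highest shares below control were cholesterol synthesis and uptake, tubulins, mitosis, fatty acid synthesis, glycolysis and DNA replication. The classes with the highest shares above control held few genes each. They were ethanol and acetaldehyde oxidation, histones, the renin-angiotensin system, the immediate early genes and the circadian clock.

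**Figure D2:**
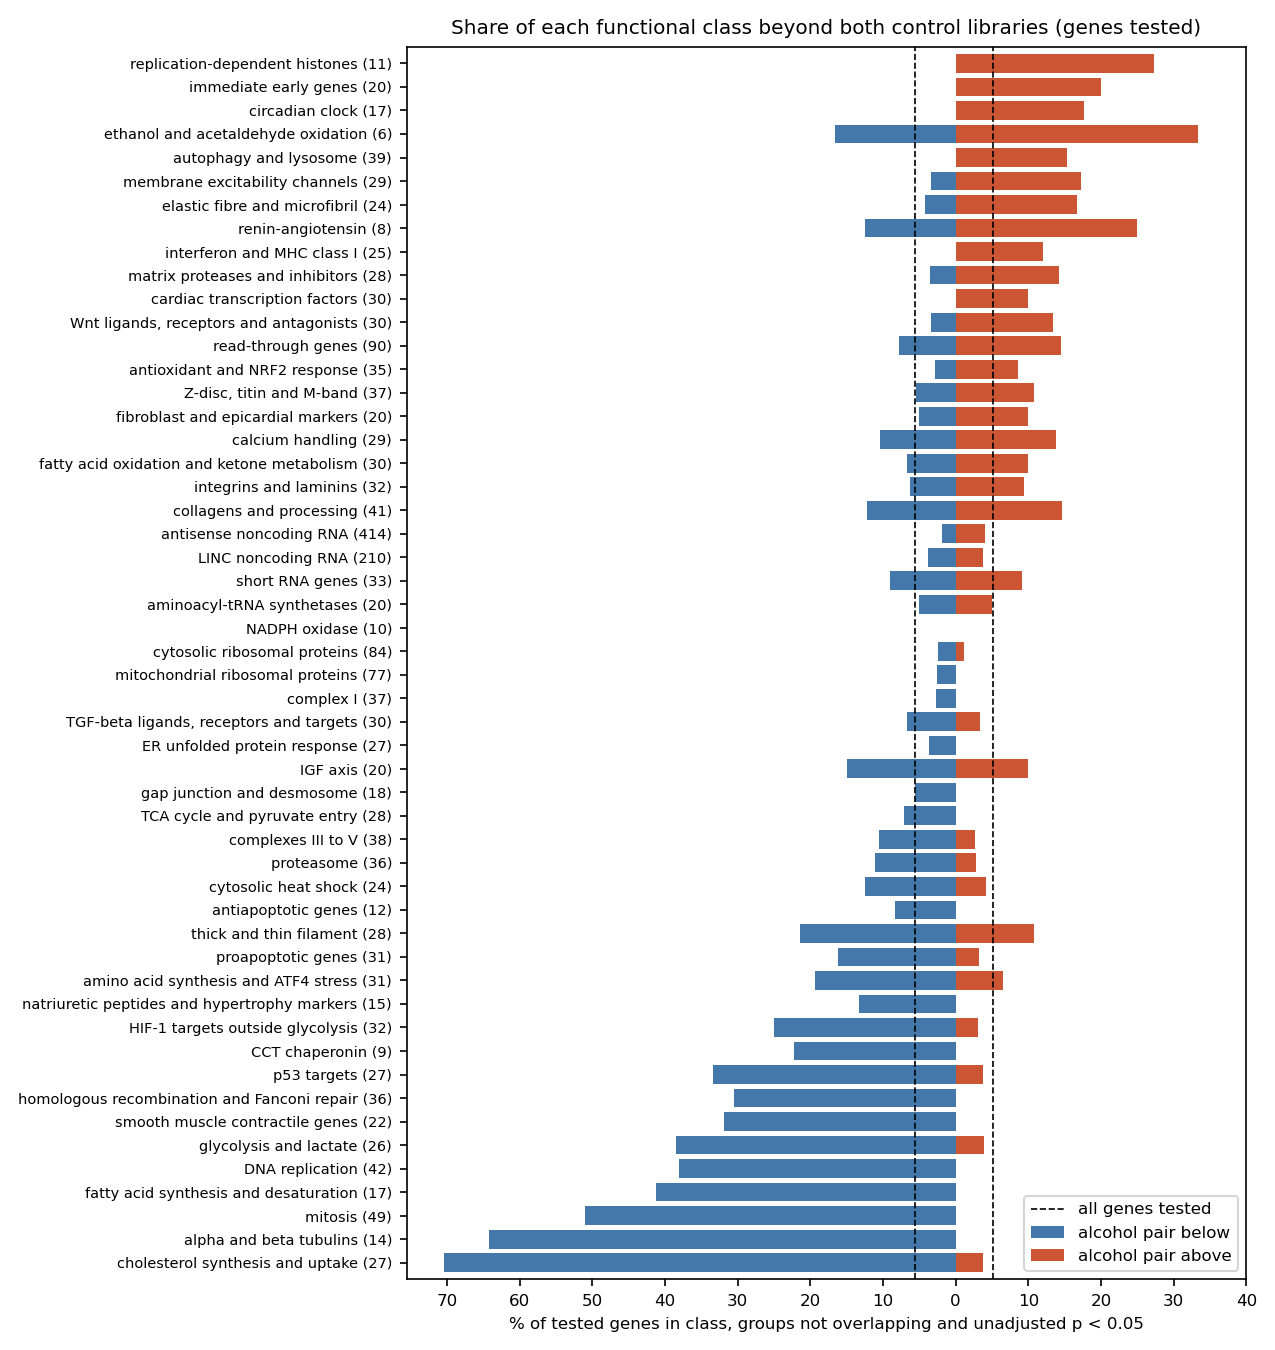
Share of the tested genes of each class (number tested in parentheses) whose 2 alcohol libraries lay below (left bars) or above (right bars) both control libraries with an unadjusted p under 0.05, in percent. Dashed lines mark all genes tested, 5.55% and 5.18%. Cholesterol synthesis and uptake reaches 70.4% on the left, and mitosis 51.0%.

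Genes of cell division lay lower in alcohol. The mitosis class holds the kinases, cyclins, spindle proteins and kinetochore proteins that are transcribed in G2 and M phase. All 49 tested members had a log2 fold change below 0, with a median of −0.69, against −0.0033 over all genes. Below both control libraries with an unadjusted p under 0.05 lay 25 of the 49, and 0 lay above. The control libraries themselves differed: relative to the mean of control, the class median was −0.39 and 0.39 in the control libraries and −0.78 and −0.44 in the alcohol libraries. The median log2 fold change was −1.01 and −0.19 with control replicates 1 and 2 left out in turn, and −0.51 and −0.83 with alcohol replicates 1 and 2 left out in turn. The direction of the class median held against each control library, while the size rested on control replicate 2. Alcohol replicate 2 lay close to control replicate 1, at −0.44 against −0.39, with a summed FPKM of 682 against 700.4.

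Members of each role are given in turn. BUB1, a kinase of the spindle checkpoint, had 25.3 and 37.3 FPKM in control against 16.7 and 18.7 FPKM in alcohol (log2 fold change −0.86, standard error 0.16). CCNB1, the cyclin that drives entry into mitosis, had 25.4 and 49.7 FPKM untreated and 15.8 and 22.3 FPKM with alcohol (log2 fold change −1.02, standard error 0.24). In both genes control replicate 2 stood highest, and in CCNB1 alcohol replicate 2 lay close under control replicate 1. ANLN, an actin-binding protein of the cleavage furrow, had 36.8 and 60.4 FPKM in control against 28.0 and 26.4 FPKM in alcohol (log2 fold change −0.87, standard error 0.18). PRC1, which bundles microtubules of the central spindle, had 24.6 and 36.7 FPKM untreated and 16.7 and 20.5 FPKM with alcohol (log2 fold change −0.78, standard error 0.18). MKI67, a widely used marker of cycling cells that was named outside the rule, had 8.02 and 14.9 FPKM in control against 5.80 and 8.49 FPKM in alcohol, so its groups overlapped.

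Promoters of many G2 and M phase genes carry the cell cycle homology region, TTTGAA, near the start of transcription. In the 250 bases before the gene start it was found on either strand in 24 of the 43 tested mitosis genes with a promoter sequence (55.8%), and in 1033 of 11766 promoters of all tested genes (8.78%). ANLN and PRC1, which are among the named members and hold it, are printed, since their matches lie close to the gene start. Both promoters are given 5′ to 3′ from RefSeq (GRCh38.p14), with each match in capitals.
ANLN (chr7:36389612-36389861, plus strand): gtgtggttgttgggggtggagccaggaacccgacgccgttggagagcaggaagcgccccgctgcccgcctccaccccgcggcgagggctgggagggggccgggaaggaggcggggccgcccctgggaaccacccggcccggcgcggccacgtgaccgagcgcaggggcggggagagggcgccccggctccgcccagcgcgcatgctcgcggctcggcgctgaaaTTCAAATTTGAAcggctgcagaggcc
PRC1 (chr15:90994536-90994785, minus strand): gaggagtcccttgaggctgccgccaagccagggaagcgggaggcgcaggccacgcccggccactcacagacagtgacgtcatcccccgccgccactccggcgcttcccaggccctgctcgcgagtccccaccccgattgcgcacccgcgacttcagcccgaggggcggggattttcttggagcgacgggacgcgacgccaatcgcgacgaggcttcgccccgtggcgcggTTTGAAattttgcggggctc
The match in PRC1 begins at −20 from the gene start, and the pair in ANLN begins at −26 and −20.

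DNA replication genes were lower by a smaller amount, and here the control libraries lay close together. Of 42 tested, 39 had a log2 fold change below 0, with a median of −0.35, and 16 lay below both control libraries with an unadjusted p under 0.05 against 0 above. The class median relative to control was −0.02 and 0.02 in the control libraries and −0.24 and −0.44 in the alcohol libraries. TYMS, which makes thymidylate, had 78.7 and 117 FPKM untreated and 64.7 and 68.4 FPKM with alcohol (log2 fold change −0.59, standard error 0.17). PCNA, the sliding clamp of DNA polymerase, had 58.9 and 63.8 FPKM in control against 48.5 and 42.5 FPKM in alcohol (log2 fold change −0.47, standard error 0.13). RRM2, a subunit of ribonucleotide reductase, had 15.6 and 20.5 FPKM untreated and 12.7 and 13.4 FPKM with alcohol, and GINS1, a part of the replicative helicase, had 7.58 and 9.07 FPKM in control against 6.15 and 4.86 FPKM in alcohol. In each of these genes both alcohol libraries lay below both control libraries.

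Among genes of homologous recombination and the Fanconi pathway, which repair broken and crosslinked DNA, 11 of 36 tested lay below both control libraries with an unadjusted p under 0.05 and 0 above, with a class median of −0.18, which was −0.09 without alcohol replicate 2. RAD54B, counted among the 11, shares reads with FSBP and is given below with FSBP. FANCI, a part of the complex that marks crosslinks, had 17.1 and 22.3 FPKM untreated and 14.0 and 13.4 FPKM with alcohol (log2 fold change −0.56, standard error 0.14). XRCC2, a protein of recombination repair, had 9.84 and 7.09 FPKM in control against 5.55 and 4.37 FPKM in alcohol (log2 fold change −0.80, standard error 0.22). Many of these genes are expressed mainly in cycling cells. Of 53 listed replication-dependent histones only 11 had enough counts to be tested, and the rest were not compared. Of the 11, 3 lay above both control libraries with an unadjusted p under 0.05 from edgeR and 0 below. Their class median was 0.31. That median was 0.46 and 0.19 with control replicates 1 and 2 left out in turn. With alcohol replicates 1 and 2 left out in turn it was 0.47 and 0.17. HIST1H2AC, a histone H2A, had 17.5 and 21.4 FPKM untreated and 32.9 and 52.0 FPKM with alcohol (log2 fold change 1.07, standard error 0.24), and HIST1H2BC, a histone H2B from the same cluster, had 5.34 and 5.00 FPKM in control against 8.04 and 14.2 FPKM in alcohol.

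α- and β-tubulins, the building blocks of microtubules, lay lower in alcohol. Of 14 tested, 9 lay below both control libraries with an unadjusted p under 0.05 and 0 above, and the median log2 fold change was −0.64. The class median relative to control was −0.09 and 0.09 in the control libraries and −0.37 and −0.85 in the alcohol libraries. TUBA1B, the most abundant of the 4 named here, had 761 and 1263 FPKM untreated and 576 and 545 FPKM with alcohol (log2 fold change −0.89, standard error 0.19). TUBA1A had 435 and 498 FPKM in control against 325 and 218 FPKM in alcohol (log2 fold change −0.81, standard error 0.19), TUBA1C had 60.6 and 84.5 FPKM untreated and 46.0 and 46.0 FPKM with alcohol (log2 fold change −0.69, standard error 0.15), and TUBB2B had 37.2 and 37.0 FPKM in control against 25.0 and 21.8 FPKM in alcohol (log2 fold change −0.70, standard error 0.14). In TUBA1B control replicate 2 stood apart above the other libraries, while in TUBB2B the control libraries were nearly equal. Tubulin genes are near copies, and reads can be divided among them. Without alcohol replicate 2 the class median was −0.40. The CCT chaperonin, which folds tubulin and actin, was lower in 9 of 9 subunits, with a median of −0.18. Of these, 8 lay below both control libraries (21.8% of all genes did) and 2 of them, CCT2 and CCT5, with an unadjusted p under 0.05. CCT2 had 75.1 and 91.3 FPKM untreated and 60.0 and 50.6 FPKM with alcohol (log2 fold change −0.62, standard error 0.15).

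**Figure D3:**
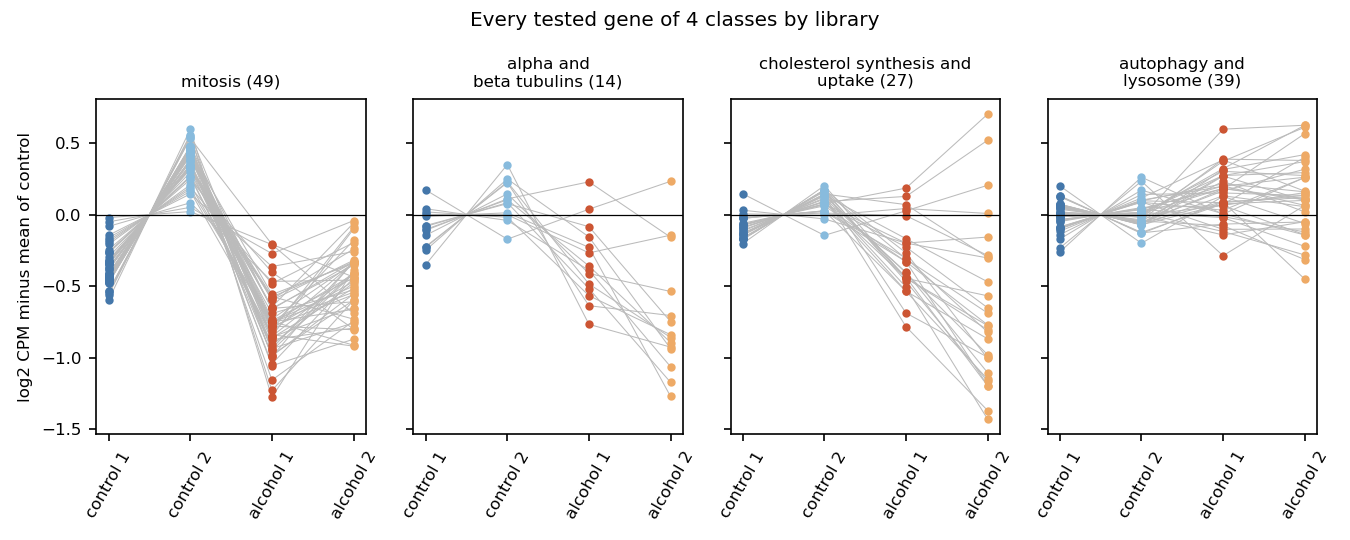
Every tested gene of 4 classes: log2 CPM minus the gene's mean in the 2 control libraries, with 1 point per gene and library and grey lines joining a gene's points. Mitosis genes separate the control libraries as well (medians −0.39 and 0.39), tubulins and cholesterol genes spread farthest in alcohol replicate 2, and autophagy and lysosome genes sit slightly above 0 in both alcohol libraries.

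Cholesterol synthesis and uptake had the highest share of genes below control. The enzymes of synthesis turn acetyl-CoA into cholesterol by way of mevalonate and squalene. They are switched on together by SREBP2 when membranes are short of sterol. The class also holds genes of uptake and control, SCAP among them. Of 27 tested genes, 19 lay below both control libraries with an unadjusted p under 0.05 and 1 above. The median log2 fold change was −0.54, and the class median relative to control was −0.09 and 0.09 in the control libraries and −0.33 and −0.78 in the alcohol libraries. Both alcohol libraries lay below both control libraries, alcohol replicate 2 by more. The summed FPKM was 1149 and 1340 in control and 964 and 812 in alcohol, so the control libraries also differed. Without alcohol replicate 2 the median was −0.33, and without alcohol replicate 1 it was −0.77.

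In the order of the pathway, HMGCS1, which makes HMG-CoA, had 92.0 and 113 FPKM in control against 59.1 and 41.5 FPKM in alcohol (log2 fold change −1.05, standard error 0.19). IDI1, which isomerizes isopentenyl diphosphate, had 37.5 and 39.4 FPKM untreated and 26.8 and 18.4 FPKM with alcohol (log2 fold change −0.82, standard error 0.17). FDPS, the farnesyl diphosphate synthase, had 103 and 133 FPKM in control against 73.2 and 62.2 FPKM in alcohol (log2 fold change −0.85, standard error 0.17). FDFT1, which makes squalene, had 109.5 and 129 FPKM untreated and 81.2 and 67.3 FPKM with alcohol (log2 fold change −0.70, standard error 0.14). These genes show the same order of libraries, with control replicate 2 highest and alcohol replicate 2 lowest. The 1 gene above control was SCAP, the protein that escorts SREBPs to the Golgi, with 17.4 and 19.9 FPKM in control against 21.1 and 31.7 FPKM in alcohol (log2 fold change 0.47, standard error 0.16).

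Promoters of sterol genes often combine a sterol element with a CCAAT box, the site of NF-Y. CCAAT was found on either strand in the 250 bases before the gene start in 16 of 21 cholesterol genes with a promoter sequence (76.2%), and in 4077 of 11766 promoters of all tested genes (34.7%). HMGCS1 and FDPS, which are among the named members and hold it, are printed from RefSeq (GRCh38.p14), with CCAAT or its reverse complement in capitals. The other named members are not printed, whether or not they hold it.
HMGCS1 (chr5:43313413-43313662, minus strand): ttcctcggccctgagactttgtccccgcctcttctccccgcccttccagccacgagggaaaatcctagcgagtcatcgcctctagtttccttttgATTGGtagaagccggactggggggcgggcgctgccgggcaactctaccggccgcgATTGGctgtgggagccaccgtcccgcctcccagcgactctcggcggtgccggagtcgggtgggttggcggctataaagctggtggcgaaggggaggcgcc
FDPS (chr1:155308616-155308865, plus strand): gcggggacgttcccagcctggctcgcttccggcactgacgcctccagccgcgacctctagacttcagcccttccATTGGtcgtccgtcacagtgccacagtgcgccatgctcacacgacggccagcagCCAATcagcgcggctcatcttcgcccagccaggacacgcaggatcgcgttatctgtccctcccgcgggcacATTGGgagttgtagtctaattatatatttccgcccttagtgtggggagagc
HMGCS1 holds 2 matches and FDPS 3.

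Fatty acid synthesis, which shares the SREBP factors, lay lower by less. Of 17 tested genes, 7 lay below both control libraries with an unadjusted p under 0.05 and 0 above, with a median of −0.24. ACLY, which makes cytosolic acetyl-CoA, had 34.8 and 41.6 FPKM untreated and 29.2 and 23.3 FPKM with alcohol (log2 fold change −0.57, standard error 0.15). FASN, the fatty acid synthase, had 22.6 and 25.9 FPKM in control against 17.2 and 13.1 FPKM in alcohol (log2 fold change −0.71, standard error 0.17). The desaturases SCD, with 81.4 and 88.8 FPKM untreated and 54.0 and 35.0 FPKM with alcohol, and FADS2, with 44.0 and 55.5 FPKM in control against 39.0 and 29.8 FPKM in alcohol, also lay lower. Genes of fatty acid oxidation and ketone metabolism were not lower as a class: 3 of 30 lay above control and 2 below, with a median of 0.09. OXCT1, which uses ketone bodies, had 68.4 and 73.5 FPKM untreated and 57.1 and 50.9 FPKM with alcohol (log2 fold change −0.43, standard error 0.13).

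**Figure D4:**
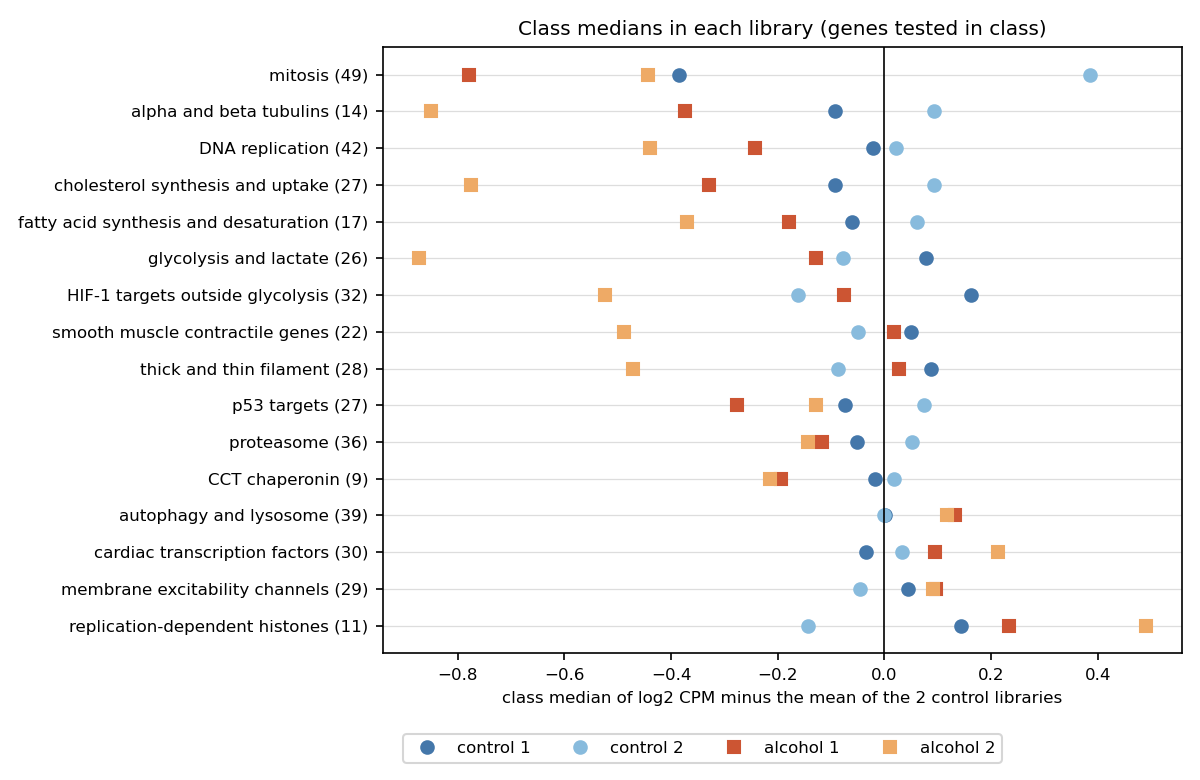
Median over the tested genes of 16 classes (number tested in parentheses) of the log2 CPM minus the mean of the 2 control libraries, with 1 point per library. Cholesterol synthesis and uptake, tubulins and DNA replication have both alcohol libraries below both control libraries. For glycolysis, smooth muscle and filament genes alcohol replicate 2 stands apart at −0.87, −0.49 and −0.47.

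Glycolysis genes lay lower mainly in alcohol replicate 2. Of 26 tested genes, which carry glucose to pyruvate and lactate, 10 lay below both control libraries with an unadjusted p under 0.05 and 1 above, with a median of −0.46. The class median relative to control was 0.08 and −0.08 in the control libraries and −0.13 and −0.87 in the alcohol libraries, and the median log2 fold change was −0.26 and −0.55 with control replicates 1 and 2 left out in turn, and −0.86 and −0.13 with alcohol replicates 1 and 2 left out in turn. PGK1, which yields the first ATP of the pathway, had 489.9 and 408 FPKM in control against 308 and 157 FPKM in alcohol (log2 fold change −0.98, standard error 0.24). PGAM1, the mutase of the next step, had 444 and 401 FPKM untreated and 318 and 197 FPKM with alcohol (log2 fold change −0.74, standard error 0.19). The 1 gene above control was PFKM, the muscle phosphofructokinase, with 82.7 and 87.4 FPKM in control against 97.5 and 113 FPKM in alcohol. For HIF-1 targets outside glycolysis, genes that low oxygen switches on, 8 of 32 lay below and 1 above, with a median of −0.26. That median was −0.15 and −0.42 with control replicates 1 and 2 left out in turn, and −0.54 and −0.07 with alcohol replicates 1 and 2 left out in turn. NDUFA4L2, a mitochondrial protein induced by HIF-1, had 10.7 and 4.89 FPKM untreated and 2.52 and 0.81 FPKM with alcohol (log2 fold change −2.24, standard error 0.57), and FAM162A had 156 and 114 FPKM in control against 94.3 and 58.6 FPKM in alcohol (log2 fold change −0.86, standard error 0.21). Control replicate 1 stood above control replicate 2 in these genes. The HIF core ACGTG was found on either strand in the promoters of 14 of 27 HIF-1 targets (51.9%) and 8 of 23 glycolysis genes (34.8%), against 2677 of 11766 promoters of all tested genes (22.8%). PGK1, which holds 2 matches, is printed with them in capitals.
PGK1 (chrX:78103998-78104247, plus strand, RefSeq, GRCh38.p14): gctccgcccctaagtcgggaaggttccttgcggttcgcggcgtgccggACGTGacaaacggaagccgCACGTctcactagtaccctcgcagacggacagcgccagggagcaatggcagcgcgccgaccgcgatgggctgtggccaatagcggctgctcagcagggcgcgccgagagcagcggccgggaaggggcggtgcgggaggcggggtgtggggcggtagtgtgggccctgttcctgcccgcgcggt

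Mitochondrial classes had medians near 0. For complex I, 1 of 37 tested subunits lay below control and 0 above, with a median of −0.03 (0.02 leaving out control replicate 1, −0.02 leaving out control replicate 2, 0.02 leaving out alcohol replicate 2), and for complexes III to V 4 of 38 lay below and 1 above, with a median of −0.08 (−0.18 leaving out alcohol replicate 1, 0.005 leaving out alcohol replicate 2). CYCS, the cytochrome c of the respiratory chain, had 72.7 and 66.2 FPKM untreated and 57.4 and 47.7 FPKM with alcohol (log2 fold change −0.44, standard error 0.14). For the TCA cycle and the entry of pyruvate the median was 0.0072 (−0.13 to 0.06 with 1 of the 4 libraries left out) over 28 genes, and for mitochondrial ribosomal proteins it was −0.0036 (−0.02 to 0.03 with 1 of the 4 libraries left out) over 77. Cytosolic ribosomal proteins lay above both control libraries in 29 of 84 genes, against 22% of all genes, 1 of them with an unadjusted p under 0.05 (1.19%, against 5.18% of all genes), and had a median of 0.05 (−0.0057 to 0.11 with 1 of the 4 libraries left out). RPS27L and RPL22L1, copies of RPS27 and RPL22, lay below control, RPS27L with 68.3 and 98.2 FPKM in control against 63.8 and 54.1 FPKM in alcohol and RPL22L1 with 19.0 and 26.1 FPKM untreated and 17.3 and 15.1 FPKM with alcohol. Proteasome subunits lay below both control libraries in 19 of 36 genes, against 21.8% of all genes, 4 of them with an unadjusted p under 0.05, with a median of −0.12 (−0.04 leaving out control replicate 2), and PSMB1, a subunit of its core, had 137 and 145 FPKM in control against 115 and 118 FPKM in alcohol.

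Contractile genes were split. Of 28 tested genes of the thick and thin filament, 6 lay below both control libraries with an unadjusted p under 0.05 and 3 above, with a median of −0.16. The class median relative to control was 0.09 and −0.09 in the control libraries and 0.03 and −0.47 in the alcohol libraries, and the median log2 fold change was −0.08 and −0.20 with control replicates 1 and 2 left out in turn, and −0.47 and 0.02 with alcohol replicates 1 and 2 left out in turn. MYL7, the atrial regulatory light chain, had 14512 and 16179.8 FPKM untreated and 12612 and 9321 FPKM with alcohol (log2 fold change −0.52, standard error 0.17). MYL3, the ventricular essential light chain, had 1712 and 1849 FPKM in control against 1474 and 1178 FPKM in alcohol (log2 fold change −0.46, standard error 0.15), and TNNC1, the troponin C of heart and slow muscle, had 2863 and 2983 FPKM untreated and 2501 and 1881 FPKM with alcohol (log2 fold change −0.45, standard error 0.16). LMOD2, which elongates thin filaments, lay above control with 161 and 138 FPKM in control against 195 and 206 FPKM in alcohol (log2 fold change 0.39, standard error 0.13), as did the fast skeletal troponin TNNT3 at a far lower level, with 1.33 and 1.52 FPKM untreated and 3.18 and 3.25 FPKM with alcohol. Of 37 genes of the Z-disc, titin and the M-band, 4 lay above and 2 below. FHL2, a LIM protein of the Z-disc, had 275 and 236 FPKM in control against 365 and 313 FPKM in alcohol, and ACTN1, the α-actinin of non-muscle cells, had 62.4 and 61.0 FPKM untreated and 50.9 and 36.5 FPKM with alcohol.

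The natriuretic peptides lay lower in alcohol. NPPA, which encodes the atrial peptide ANP, had 3622 and 4799 FPKM in control against 2965 and 2363 FPKM in alcohol (log2 fold change −0.69, standard error 0.18). NPPB, which encodes BNP, had 1721 and 1233 FPKM untreated and 1079 and 301 FPKM with alcohol (log2 fold change −1.12, standard error 0.40), and alcohol replicate 2 stood apart at the bottom. Without alcohol replicate 2 the log2 fold change was −0.50 for NPPA and −0.45 for NPPB. No other gene of the 15 tested in that class of natriuretic peptides and hypertrophy markers lay beyond control with an unadjusted p under 0.05. Without regard to p, 6 of the 15 lay above both control libraries and 2 below, against 22% and 21.8% of all genes. The class median was 0.09 (0.04 leaving out alcohol replicate 2). The smooth muscle contractile genes, which immature cardiomyocytes also express, had 7 of 22 below control and 0 above, with a median of −0.22. That median was −0.13 and −0.24 with control replicates 1 and 2 left out in turn, and −0.53 and 0.02 with alcohol replicates 1 and 2 left out in turn. ACTA2, the smooth muscle α-actin, had 507 and 580.2 FPKM in control against 337 and 203 FPKM in alcohol (log2 fold change −1.04, standard error 0.20), and TAGLN, an actin-binding protein, had 998 and 826 FPKM untreated and 689 and 340.0 FPKM with alcohol (log2 fold change −0.85, standard error 0.26). The antisense gene ACTA2-AS1, which overlaps ACTA2, had 254 and 212 FPKM in control against 179 and 93.9 FPKM in alcohol, and without strand their reads cannot be told apart. The summed cardiomyocyte and smooth muscle markers were lowest in alcohol replicate 2 as given above, and their part in these values was not tested.

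Genes of excitation and calcium handling lay more often above control than below. Of 29 tested ion channel genes, 5 lay above both control libraries with an unadjusted p under 0.05 and 1 below, with a median of 0.17 (−0.0085 leaving out alcohol replicate 1, 0.10 leaving out alcohol replicate 2). KCNIP2, a subunit of the transient outward potassium channel, had 11.1 and 13.8 FPKM untreated and 18.4 and 34.8 FPKM with alcohol (log2 fold change 1.05, standard error 0.21). KCNQ1, the pore of the slow delayed rectifier, had 6.78 and 6.53 FPKM in control against 9.68 and 10.8 FPKM in alcohol (log2 fold change 0.59, standard error 0.16), and KCNJ5, of the acetylcholine-gated channel, had 8.32 and 7.71 FPKM untreated and 10.4 and 11.8 FPKM with alcohol (log2 fold change 0.43, standard error 0.17). For calcium handling, 4 of 29 lay above and 3 below, with a median of 0.11. Besides PPP1R1A, those above were the calcium-dependent kinases CAMK2A, with 12.3 and 13.4 FPKM in control against 17.4 and 23.7 FPKM in alcohol, and CAMK2B, with 7.28 and 6.55 FPKM untreated and 11.4 and 9.60 FPKM with alcohol, and the calcium pump ATP2B1, with 5.34 and 5.15 FPKM in control against 6.63 and 8.91 FPKM in alcohol. CASQ2, the calsequestrin that stores calcium in the sarcoplasmic reticulum of heart muscle, lay below with 10.7 and 7.15 FPKM untreated and 4.80 and 4.50 FPKM with alcohol (log2 fold change −0.98, standard error 0.24), as did CASQ1 with 44.8 and 39.7 FPKM in control against 38.8 and 27.4 FPKM in alcohol. The RNA of RYR1, the calcium release channel of skeletal muscle, was low throughout, with 0.14 and 0.10 FPKM untreated and 0.32 and 0.52 FPKM with alcohol.

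Cardiac transcription factors lay above both control libraries in 14 of 30 tested genes, 3 with an unadjusted p under 0.05, and below in 2, against 22% and 21.8% of all genes, with a median of 0.15 (0.10 leaving out alcohol replicate 2). PROX1 had 10.3 and 12.4 FPKM in control against 13.3 and 17.4 FPKM in alcohol (log2 fold change 0.40, standard error 0.13), and HEY2, a transcriptional repressor expressed in the ventricular compartment, had 25.4 and 29.4 FPKM untreated and 30.6 and 42.1 FPKM with alcohol (log2 fold change 0.37, standard error 0.14). Both were highest in alcohol replicate 2. Of the Wnt genes, the secreted antagonists SFRP5, with 11.3 and 14.1 FPKM in control against 16.7 and 27.5 FPKM in alcohol, and SFRP1, with 107 and 103 FPKM untreated and 129.7 and 167 FPKM with alcohol, and the ligand WNT5A, with 19.2 and 20.6 FPKM in control against 22.8 and 30.9 FPKM in alcohol, lay above control, and the class had 4 of 30 above and 1 below.

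Matrix genes also lay on both sides of control. COL14A1, a collagen that sits on fibrils, rose from 6.94 and 5.32 FPKM in control to 12.8 and 20.9 FPKM with alcohol, at an edgeR adjusted p of 0.0247. MFAP4, a glycoprotein of elastic microfibrils, rose from 26.7 and 24.9 FPKM to 50.7 and 66.9 FPKM, at an edgeR adjusted p of 0.0116. Without alcohol replicate 2 the adjusted p was 0.119 for COL14A1 and 0.0924 for MFAP4, and without the co-treated replicates 1 and 2 it was 0.133 and 0.113 for COL14A1 and 0.0630 and 0.0598 for MFAP4. For COL14A1 it was 0.0569 without control replicate 2. Over 14 alternatives the adjusted p of the pair lay between 1.18e-06 and 0.162. In the collagen class 6 of 41 tested genes lay above both control libraries with an unadjusted p under 0.05 and 5 below, with a median of 0.03 (−0.009 to 0.08 with 1 of the 4 libraries left out). COL6A1 and COL6A2, chains of the same beaded filament that surrounds muscle cells, lay above, COL6A1 with 30.7 and 29.2 FPKM untreated and 50.5 and 55.3 FPKM with alcohol (log2 fold change 0.78, standard error 0.14) and COL6A2 with 27.2 and 29.1 FPKM in control against 38.2 and 43.9 FPKM in alcohol (log2 fold change 0.51, standard error 0.17). COL4A6, of the basement membrane, had 30.9 and 31.4 FPKM untreated and 40.3 and 49.3 FPKM with alcohol (log2 fold change 0.48, standard error 0.12). Below lay COL5A2, a fibrillar chain, with 209 and 227 FPKM in control against 176 and 183 FPKM in alcohol, and the crosslinking enzymes LOX, with 3.31 and 3.96 FPKM untreated and 2.69 and 1.70 FPKM with alcohol, and LOXL2, with 33.5 and 28.2 FPKM in control against 26.9 and 22.6 FPKM in alcohol. The prolyl hydroxylase P4HA2, which is also a HIF-1 target, had 31.9 and 21.6 FPKM untreated and 18.6 and 11.4 FPKM with alcohol.

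Among 24 tested genes of elastic fibres and microfibrils, 4 lay above control and 1 below. MFAP2 had 9.32 and 10.4 FPKM in control against 20.8 and 22.0 FPKM in alcohol (log2 fold change 1.07, standard error 0.22), with tight replicates in both groups, and LTBP2, which binds fibrillin, had 1.12 and 1.15 FPKM untreated and 2.12 and 2.24 FPKM with alcohol (log2 fold change 0.90, standard error 0.21). FBN2, the fibrillin of the embryo, lay below with 141 and 143 FPKM in control against 111 and 102 FPKM in alcohol (log2 fold change −0.45, standard error 0.13). Of 28 proteases and inhibitors, 4 lay above, TFPI2 among them, and 1 below. MMP2, a gelatinase, had 9.07 and 9.16 FPKM untreated and 12.6 and 12.2 FPKM with alcohol, ADAMTS19 had 5.59 and 4.99 FPKM in control against 7.83 and 12.1 FPKM in alcohol, and ADAMTS9, which cleaves versican, had 22.2 and 29.8 FPKM untreated and 19.0 and 18.7 FPKM with alcohol. POSTN, a marker of activated fibroblasts, had 35.0 and 37.7 FPKM in control against 29.4 and 28.0 FPKM in alcohol, and the calcium-binding protein S100A4 had 303 and 245 FPKM untreated and 374 and 469 FPKM with alcohol. TGF-β ligands, receptors and targets had 1 of 30 above and 2 below, shares near those of all genes (5.18% and 5.55%), with a median of −0.08 (0.05 leaving out control replicate 1, −0.03 leaving out alcohol replicate 1, 0.0015 leaving out alcohol replicate 2). In a longer list of fibroblast and epicardial markers, 9 of 20 tested genes had a log2 fold change above 0 and 11 below. Its median was −0.10 (−0.07 to 0.04 with 1 of the 4 libraries left out), and 2 genes lay above control and 1 below. The summed fibroblast or epicardial markers given above, a shorter list, did not overlap between the groups. Their sums were 429 to 476 FPKM in control and 493 to 526 FPKM in alcohol, and 3 of the listed markers were under 1 FPKM in all 4 libraries. Their part in the values of the matrix genes was not tested.

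Lysosome and autophagy genes were slightly higher in both alcohol libraries. Of 39 tested, 20 lay above both control libraries (22% of all genes did), 6 of them with an unadjusted p under 0.05, and 5 lay below. The class median lay 0.13 and 0.12 above the mean of control in the alcohol libraries, and the median log2 fold change was 0.13. GAA, the lysosomal glucosidase that breaks down glycogen, had 8.13 and 8.27 FPKM in control against 12.9 and 13.5 FPKM in alcohol (log2 fold change 0.62, standard error 0.15). SQSTM1, the autophagy receptor p62, had 45.3 and 44.9 FPKM untreated and 58.5 and 72.7 FPKM with alcohol (log2 fold change 0.50, standard error 0.13). The protease CTSD had 44.1 and 45.0 FPKM in control against 55.6 and 72.5 FPKM in alcohol (log2 fold change 0.48, standard error 0.14), and HEXA, a hexosaminidase, had 30.6 and 27.5 FPKM untreated and 37.9 and 43.0 FPKM with alcohol (log2 fold change 0.37, standard error 0.12). In all 4 genes the control libraries lay close together. Lysosomal genes often carry the CLEAR element, GTCACGTG, which TFEB binds, and it was found on either strand in 7 of the 32 promoters of the class (21.9%), against 441 of 11766 of all tested genes (3.75%). GAA is printed, since it holds the letters in 2 palindromic stretches, in capitals.
GAA (chr17:80101331-80101580, plus strand, RefSeq, GRCh38.p14): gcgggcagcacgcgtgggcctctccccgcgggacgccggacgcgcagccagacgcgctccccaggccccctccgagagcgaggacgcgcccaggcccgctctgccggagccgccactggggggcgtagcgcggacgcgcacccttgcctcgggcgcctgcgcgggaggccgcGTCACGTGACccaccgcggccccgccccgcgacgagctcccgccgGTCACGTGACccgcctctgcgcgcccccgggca

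Stress genes lay on both sides of control. In the ER unfolded protein response 1 of 27 tested genes lay below control and 0 above, with a median of −0.04 (0.05 leaving out control replicate 2). Cytosolic heat shock genes had 3 of 24 below and 1 above. HSP90AA1, the inducible HSP90, had 368 and 362 FPKM in control against 306 and 244 FPKM in alcohol (log2 fold change −0.44, standard error 0.15), and the small heat shock protein HSPB8 had 105 and 96.4 FPKM untreated and 132 and 127 FPKM with alcohol (log2 fold change 0.33, standard error 0.12). In the class of amino acid synthesis and ATF4 stress 6 of 31 lay below and 2 above. PYCR1, the last step of proline synthesis, had 27.6 and 32.0 FPKM in control against 21.7 and 16.3 FPKM in alcohol (log2 fold change −0.66, standard error 0.18), and the amino acid transporter SLC7A5 had 7.65 and 6.32 FPKM untreated and 5.50 and 3.86 FPKM with alcohol. The stress factor ATF3 lay above control with 14.2 and 12.7 FPKM in control against 19.8 and 25.8 FPKM in alcohol (log2 fold change 0.73, standard error 0.19).

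Immediate early genes, which respond to stimulation within minutes, lay above control in 4 of 20 tested and below in 0, with a median of 0.17, which was 0.36 and 0.01 with control replicates 1 and 2 left out in turn, and −0.02 and 0.31 with alcohol replicates 1 and 2 left out in turn. JUN, a subunit of AP-1, had 62.1 and 54.1 FPKM untreated and 81.3 and 107 FPKM with alcohol (log2 fold change 0.65, standard error 0.14), and BTG2, an antiproliferative gene and p53 target, had 32.9 and 29.4 FPKM in control against 39.9 and 45.7 FPKM in alcohol (log2 fold change 0.42, standard error 0.13). Of 17 clock genes, 3 lay above and 0 below: NR1D2, a repressor of the clock, had 10.2 and 12.1 FPKM untreated and 15.0 and 17.8 FPKM with alcohol, PER3 had 1.27 and 1.61 FPKM in control against 2.60 and 2.73 FPKM in alcohol, and CRY2 had 33.5 and 30.5 FPKM untreated and 37.9 and 41.7 FPKM with alcohol. Of 25 genes of interferon and MHC class I, 3 lay above and 0 below. BST2, which tethers budding viruses, had 18.7 and 17.2 FPKM in control against 30.8 and 49.0 FPKM in alcohol (log2 fold change 1.11, standard error 0.20), and IFIT1 had 5.54 and 7.49 FPKM untreated and 9.15 and 9.90 FPKM with alcohol (log2 fold change 0.50, standard error 0.18). The median of this class was −0.03 (0.0025 leaving out control replicate 1, 0.21 leaving out control replicate 2, 0.08 leaving out alcohol replicate 2), with 12 of the 25 genes above 0.

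Genes of cell death were mixed. Of 31 tested proapoptotic genes, 5 lay below both control libraries with an unadjusted p under 0.05 and 1 above, with a median of −0.12 (−0.05 leaving out alcohol replicate 2). BMF, a BH3-only protein, was the 1 above, with 6.27 and 8.71 FPKM in control against 10.1 and 15.0 FPKM in alcohol (log2 fold change 0.71, standard error 0.18). The death receptor TNFRSF10B, which is also a p53 target, lay below with 24.4 and 24.5 FPKM untreated and 19.3 and 17.8 FPKM with alcohol (log2 fold change −0.44, standard error 0.13), as did BNIP3L, a mitophagy receptor, with 59.8 and 52.2 FPKM in control against 49.2 and 35.1 FPKM in alcohol. CYCS, given above with the respiratory chain, is also counted among the 5. Of 12 antiapoptotic genes 1 lay below, BCL2L1 with 31.3 and 34.4 FPKM untreated and 25.7 and 28.3 FPKM with alcohol. Targets of p53 lay below control in 9 of 27 and above in 1, with a median of −0.23, which was −0.28 and −0.02 with control replicates 1 and 2 left out in turn, and −0.13 and −0.29 with alcohol replicates 1 and 2 left out in turn. CDKN1A, the cell cycle inhibitor p21, had 99.3 and 114 FPKM in control against 78.7 and 71.4 FPKM in alcohol (log2 fold change −0.55, standard error 0.12), and AEN, a nuclease, had 10.8 and 12.2 FPKM untreated and 7.99 and 7.58 FPKM with alcohol.

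Genes of oxidative stress and of the renin-angiotensin system, which the study measured by other assays, are given next. In the NADPH oxidase class 0 of 10 tested genes lay beyond control with an unadjusted p under 0.05 by edgeR, and the median was 0.06 (0.02 to 0.14 with 1 of the 4 libraries left out). NOX4 had 13.8 and 16.0 counts in control against 16.0 and 7.08 in alcohol, which overlap. For the antioxidant and NRF2 response 3 of 35 lay above and 1 below, with a median of 0.05 (−0.005 leaving out control replicate 1, 0.11 leaving out control replicate 2, 0.12 leaving out alcohol replicate 1). FTL, the ferritin light chain, had 285 and 277 FPKM in control against 351 and 363 FPKM in alcohol (log2 fold change 0.31, standard error 0.11), CAT, the catalase, had 11.2 and 11.4 FPKM untreated and 14.5 and 16.9 FPKM with alcohol (log2 fold change 0.43, standard error 0.17), and PRDX4, a peroxiredoxin of the ER, had 103 and 114 FPKM in control against 80.2 and 77.4 FPKM in alcohol (log2 fold change −0.50, standard error 0.13). Of 8 tested genes of the renin-angiotensin system 3 lay above both control libraries and 3 below, and with an unadjusted p under 0.05 2 above and 1 below (25% and 12.5%, against 5.18% and 5.55% of all genes), with a median of 0.12 (−0.09 to 0.29 with 1 of the 4 libraries left out). AGT, the precursor of angiotensin, lay above both control libraries with 17.0 and 20.0 FPKM untreated and 23.0 and 25.2 FPKM with alcohol (log2 fold change 0.34, standard error 0.13). AGTR1, which encodes the receptor that losartan blocks, was at 0 counts in control and at 1 and 0 counts in alcohol, so it could not be compared at this depth.

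Of 12 listed genes of ethanol and acetaldehyde oxidation, 6 passed the filter on low counts. Among those that did not, ADH1B was at 0 counts in control and at 1 and 0 in alcohol, and CYP2E1 had 1 and 3 counts in control against 4 and 5 in alcohol. Of the 6 tested, 2 lay above control and 1 below. The catalase CAT, which can also oxidize ethanol, was one of those above, and ALDH9A1 with 30.7 and 31.3 FPKM in control against 35.4 and 40.8 FPKM in alcohol was the other. ALDH1B1, a mitochondrial aldehyde dehydrogenase, lay below with 22.1 and 20.6 FPKM untreated and 18.4 and 14.5 FPKM with alcohol (log2 fold change −0.41, standard error 0.16).

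Several of the largest log2 fold changes were in genes that share reads with a partner, such as read-through genes, which join 2 neighbouring genes in 1 transcript. Of 90 tested read-through genes, 13 lay above control with an unadjusted p under 0.05 and 7 below. FSBP (NCBI Gene 100861412) rose and had 0 and 0 counts in control against 54.9 and 82.4 in alcohol, at least 23.2-fold higher against a floor of 3 counts per library (adjusted p = 0.00266 from edgeR). RAD54B, in whose transcribed region FSBP lies, had 111 and 147 counts in control against 64.2 and 24.0 in alcohol, and the pair together had 111 and 147 counts in control against 119 and 106 in alcohol. HSPE1-MOB4 (NCBI Gene 100529241) fell and had 70.1 and 62.1 counts in control against 0 and 0 in alcohol, at least 21.7-fold lower against the same floor (adjusted p = 0.0186). Its partners HSPE1 and MOB4 and the read-through gene together had 995 and 1059 counts in control against 969.8 and 850.0 in alcohol. The mean sum in alcohol was 0.873 times that of control in the FSBP set and 0.886 times in the HSPE1 set, far closer to control than the called genes. Without alcohol replicate 2 the adjusted p was 0.00898 for FSBP and 0.0924 for HSPE1-MOB4, and over 12 alternatives it lay between 0.000273 and 0.125 for FSBP and between 0.00264 and 0.162 for HSPE1-MOB4.

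INO80B-WBP1 (NCBI Gene 100532735, chr2:74455023-74460891) rose and had 65.3 and 56.7 counts in control against 169 and 138 in alcohol (log2 fold change 1.31, standard error 0.21, adjusted p = 0.0456 from edgeR, and 0.0924 without alcohol replicate 2, 0.141 without control replicate 2, and 0.123 and 0.113 without the co-treated replicates 1 and 2). INO80B, a subunit of a chromatin remodeller, had 50.2 and 66.9 counts in control against 21.2 and 54.3 in alcohol, and WBP1 had 316 and 320.4 counts in control against 367 and 441 in alcohol. Here the 3 genes together also lay above control, with 431 and 444 counts in control against 557 and 633 in alcohol, 1.36 times the mean of control. HYPK, a chaperone subunit, had 0 and 0 counts in control against 68.8 and 58.1 in alcohol, at least 21.4-fold higher against the floor, and the read-through gene SERF2-C15ORF63, which contains HYPK, had 122 and 129.5 counts in control against 17.1 and 0 in alcohol. With SERF2 they summed to 644 and 676 counts in control against 671 and 605 in alcohol. ACY1, an aminoacylase, had 77.5 and 48.3 counts in control against 17.1 and 20.6 in alcohol, while ABHD14A-ACY1 had 10.2 and 19.9 counts in control against 59.6 and 54.5 in alcohol, and with ABHD14A they summed to 128 and 113 counts in control against 127 and 133 in alcohol. For HYPK and ACY1 the alcohol sums lay within or close to the range of the control sums.

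**Figure D5:**
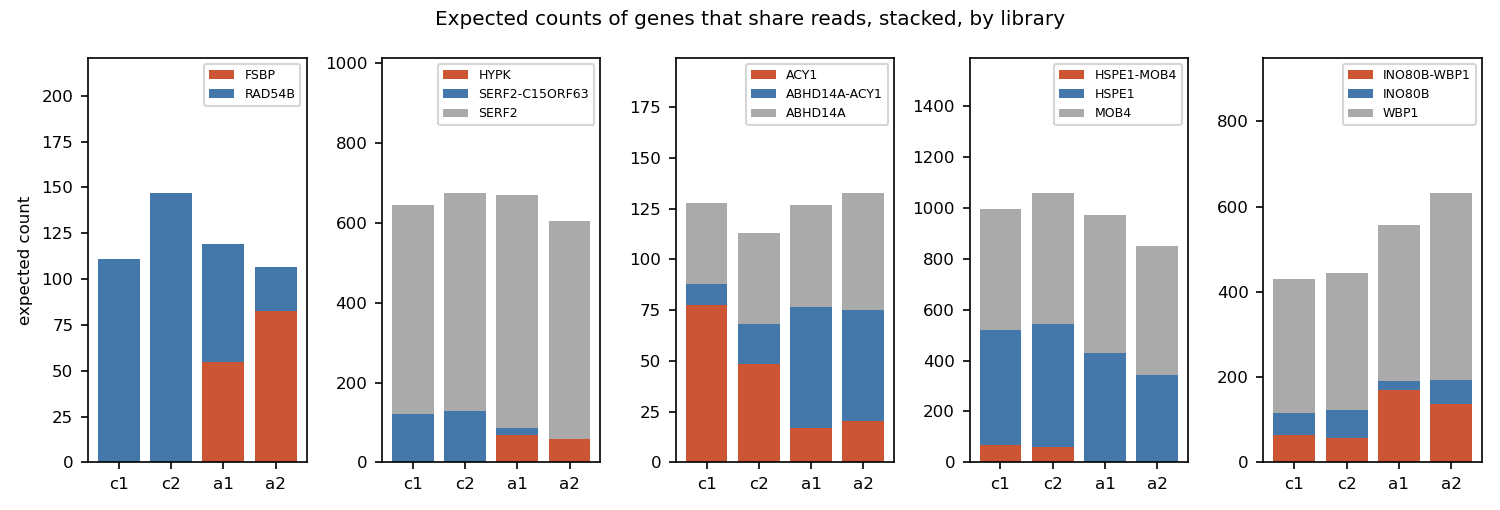
Expected counts of 5 sets of genes that share reads, stacked, in the control libraries (c1, c2) and alcohol libraries (a1, a2). In the sets of FSBP, HYPK and ACY1 the parts change places between the groups while the total height stays near 106 to 147, 605 to 676 and 113 to 133 counts, and in the INO80B set the alcohol totals are higher.

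RN7SL1 and RN7SL2, near-identical RNAs of the signal recognition particle, together had 660.2 and 1564 counts in control against 301 and 384 in alcohol, so that control replicate 2 stood apart. Among other genes with large values above control, UNC79, a subunit of a sodium leak channel, had 0.55 and 0.56 FPKM in control against 1.48 and 2.26 FPKM in alcohol (log2 fold change 1.70, standard error 0.28, adjusted p = 0.0531), and SPTLC3, of sphingolipid synthesis, had 0.71 and 0.56 FPKM untreated and 1.48 and 3.00 FPKM with alcohol (log2 fold change 1.75, standard error 0.40). Antisense noncoding RNAs lay above control in 17 of 414 tested and below in 8, and LINC RNAs in 8 and 8 of 210, and all 4 shares were below those of all genes (5.18% and 5.55%). LINC01405, the most abundant of the LINC RNAs named by the rule, had 77.3 and 57.8 FPKM in control against 117 and 92.7 FPKM in alcohol (log2 fold change 0.60, standard error 0.19), and C20orf166-AS1, an antisense RNA at the host gene of muscle microRNAs, had 13.7 and 13.8 FPKM untreated and 22.5 and 30.5 FPKM with alcohol (log2 fold change 0.91, standard error 0.15, adjusted p = 0.0531).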

How the data were processed

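The deposited values of a library are an expected count for every gene, which the authors estimated and which need not be whole, and the deposited FPKM. Per the submitters' processing notes HISAT2 2.0.4, Bowtie2 2.2.5, RSEM 1.2.12 and the build hg38 were used, without their roles. Depth was 4903673 to 5051448 counts in the 4 libraries, and a gene missing from a library's table was set to 0.

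Expected counts were rounded and tested with edgeR 4.0.16 (R 4.3.3, quasi-likelihood F test, two-sided, TMM factors, filterByExpr, all 6 libraries in 1 fit, Benjamini-Hochberg at 0.05 over 14926 genes). Standard errors were derived from the log2 fold change and its F statistic. Overlap between groups was judged on TMM-scaled CPM, and class levels on log2 CPM (prior count 2). An exact permutation test of 2 against 2 libraries cannot go below a two-sided p of 0.333. The counts of the replicates differed by 4.71 (control) and 7.64 (alcohol) times the counting noise, more than 1 library deposited again would, which does not tell separate cultures from separate library preparations.

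The members, classes and tests were chosen with earlier results of these data known. Genes were named by rule: every called gene, the 8 largest log2 fold changes per direction at p under 0.01 with 20 counts or more in the higher group, 6 per direction among the 300 highest FPKM, and 4 per direction in each class by smallest p, all without overlap, short RNA genes excepted. Partners of genes that share reads, GSTM1, GSTM4, MKI67, TNNT2, NOX4, AGTR1, ADH1B and CYP2E1 were named outside it. Some genes that the rule names are not reported here. DDR2, entered in error, was taken out of the amino acid class after its values were seen. Motifs were searched on both strands in RefSeq promoters (GRCh38.p14).

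The labels do not say that a replicate number marks a shared culture or day, so the libraries were not treated as paired. In a test on simulated data of 14708 genes for this comparison, changes of 1 on the log2 scale were recovered in 60.6% of cases and changes of 2 in 89.7%, and 10 unchanged genes were called. Alternatives were DESeq2 1.42.0, limma 3.58.1 on log2(FPKM + 1) and log2(FPKM + 0.1), other size factors, other filters, a replicate block, 4 libraries only and each library left out.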

Additional observations from a re-analysis of the deposited data

How the results depend on the processing

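The number of genes called depended on the setting. It was 68 with DESeq2, 26 when every library had to hold 10 counts or more, 3 with only the control and alcohol libraries in the fit, 2 without an expression filter, 2 with limma on log2(FPKM + 0.1), and 0 with limma on log2(FPKM + 1), where 1545 genes had an unadjusted p under 0.05. Of the 10 called genes, DESeq2 called 6. With the replicate number as a block 48 genes were called, all 10 among them. The labels tie the numbers to nothing shared and there are 2 pairs, so a pairing was not assumed. The replicate deviations of control and alcohol correlated across genes at 0.11, and the log2 differences of alcohol against control at 0.238 between the same-numbered pairs and 0.128 between the crossed pairs. With 1 library left out the number lay between 1 (without alcohol replicate 2) and 220 (without alcohol replicate 1), with 64 without control replicate 1, 9 without control replicate 2 and 3 without either co-treated library. The cause was not tested. DESeq2-type size factors gave 10 calls, and the number of genes whose groups do not overlap was 5975 to 7934 over its alternatives, against 6538.

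Of 229 named genes, NOX4 alone turned direction, with a log2 fold change of 0.092 without alcohol replicate 2 and −1.11 without alcohol replicate 1 against −0.40. Of 61 class medians, all genes included, 33 changed sign under some alternative, while the 7 of a size of 0.3 or more kept theirs under all 14 alternatives. With counts simulated at these depths, differences of 1 on the log2 scale were recovered in 60.6% of cases, and smaller ones were not simulated.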

Other observations

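Several further classes held genes on both sides of control. Of 32 tested integrins and laminins, the cell's contacts with the basement membrane, 3 lay above both control libraries with an unadjusted p under 0.05 and 2 below. Over all genes tested 5.18% lay above and 5.55% below at that p, and no gene named here was called after adjustment by edgeR. NID2, which links laminin to collagen IV, had 42.5 and 48.4 FPKM untreated and 54.2 and 68.6 FPKM with alcohol, and LAMB2, a laminin chain, had 67.8 and 67.5 FPKM untreated and 80.8 and 87.7 FPKM with alcohol. ITGA4, an integrin chain that binds fibronectin, lay below with 2.53 and 1.73 FPKM untreated and 1.40 and 0.53 FPKM with alcohol. In the IGF axis 2 of 20 lay above and 3 below. IGFBP5, a binding protein of IGF, had 655 and 891 TMM-scaled CPM untreated and 938 and 1356 with alcohol, while IGFBP7 had 202 and 254 FPKM untreated and 195 and 189 FPKM with alcohol.

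Aminoacyl-tRNA synthetases, which charge tRNAs, lay below both control libraries in 12 of 20 tested genes against 21.8% of all genes, 1 of them with an unadjusted p under 0.05. That gene was IARS, with 49.2 and 55.3 FPKM untreated and 43.7 and 44.3 FPKM with alcohol, and QARS was the 1 above control at that p, with 82.6 and 73.7 FPKM untreated and 94.3 and 103 FPKM with alcohol. Of 18 genes of the gap junction and desmosome, PKP4 lay below with 10.8 and 12.2 FPKM untreated and 9.17 and 9.13 FPKM with alcohol, and 0 lay above with an unadjusted p under 0.05 by edgeR.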
